A study of Drosophila melanogaster with 24 samples.

Results

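In 731 of 65164 ranked 2 kb bins of the *Drosophila melanogaster* genome (1.12%), the ratio of Cap-G-Dam over Dam-only signal switched from low to high. The ratio was among the lowest in neural stem cells (NSCs) and in *elav* neurons and among the highest in mature *nSyb* neurons. These switching bins were chosen on the measured values themselves. Each chromosome arm was cut into 2 kb bins from its first position, the ratio of Cap-G-Dam over Dam-only signal, on the log2 scale, was averaged over each bin by fragment length, and bins were ranked within each cell type. A bin was kept if it fell in the lowest 20% in NSCs, in the lowest 20% in *elav* neurons and in the highest 20% in *nSyb* neurons. The ratios of these bins in the 3 cell types are therefore a description, and no test was made of them. The bins cover 1462 kb. Where bins begin matters for single bins, since bins shifted by 1 kb shared 44.0% of this length and 56.8% of the protein-coding genes met, while all of the 12 longest runs below still met switching bins.

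The samples are brains of last-instar larvae, 30 per sample, with 2 Cap-G-Dam samples (from the *UAS-Cap-G-Dam* line) and 2 Dam-only samples (from a line with *UAS-LT3-NDam* and its own *tub-GAL80ts*) for each of 3 drivers. NSCs were reached with *wor-GAL4; tub-GAL80ts*. All neurons, young ones included, were reached with *elav-GAL4; tub-GAL80ts* (*elav* neurons), and those that have matured with *tub-GAL80ts; nSyb-GAL4* (*nSyb* neurons), so the *nSyb* cells are a subset of the *elav* cells. Larvae of every group were kept at 18°C and moved to 29°C for the 24 h before extraction, which releases GAL4 from GAL80ts. The values used here are 1 averaged track for each driver, with 373710 GATC fragments, so no value below has a replicate error or a p-value, and the depth behind it is not known. The tracks hold no expression values, and the labelled cell types were not checked against marker genes.

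Cap-G is a subunit of condensin I, the ring complex that compacts chromosomes in mitosis, and neurons no longer divide. In Targeted DamID the Dam methylase marks GATC sites near the protein it is fused to, and Dam alone marks mainly open chromatin. A NSC divides asymmetrically to renew itself and to give progeny that become neurons, and genes of self-renewal and division are shut off on the way. A ratio above 0 means that Cap-G-Dam methylated a site more than Dam alone did. A ratio below 0 can come from little Cap-G or from much Dam-only methylation, and these cannot be told apart in the ratio. Likewise, a ratio above 0, or a rise between cell types, can come from more Cap-G or from less Dam-only methylation. A switching bin is thus a change in the ratio and need not be a gain of Cap-G.

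In NSCs and *elav* neurons all 731 switching bins had ratios under 0, and in *nSyb* neurons all had ratios over 0. In NSCs the lowest switching bin was at a log2 ratio of -1.72, the median at -0.39 and the highest at -0.14. In *elav* neurons they ran from -2.08 through a median of -0.56 to -0.24, and in *nSyb* neurons from 0.14 through a median of 0.24 to 0.81. Over all ranked bins the medians were -0.01 in NSCs, 0.00 in *elav* and 0.00 in *nSyb* neurons, with SDs over bins of 0.21 in NSCs, 0.36 in *elav* and 0.28 in *nSyb* neurons. The medians of the switching bins lay further from 0 on the low side than on the high side, in values that the selection used. The other bins low in NSCs and *elav* neurons were alike there, with medians of -0.33 in NSCs and -0.56 in *elav* neurons. The other bins high in *nSyb* neurons had a median there of 0.26. In log2 units the difference of *nSyb* neurons minus NSCs had a median of 0.65 (quartiles 0.51 and 0.90), and that of *nSyb* minus *elav* neurons a median of 0.84 (quartiles 0.64 and 1.13).

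**Figure D1:**
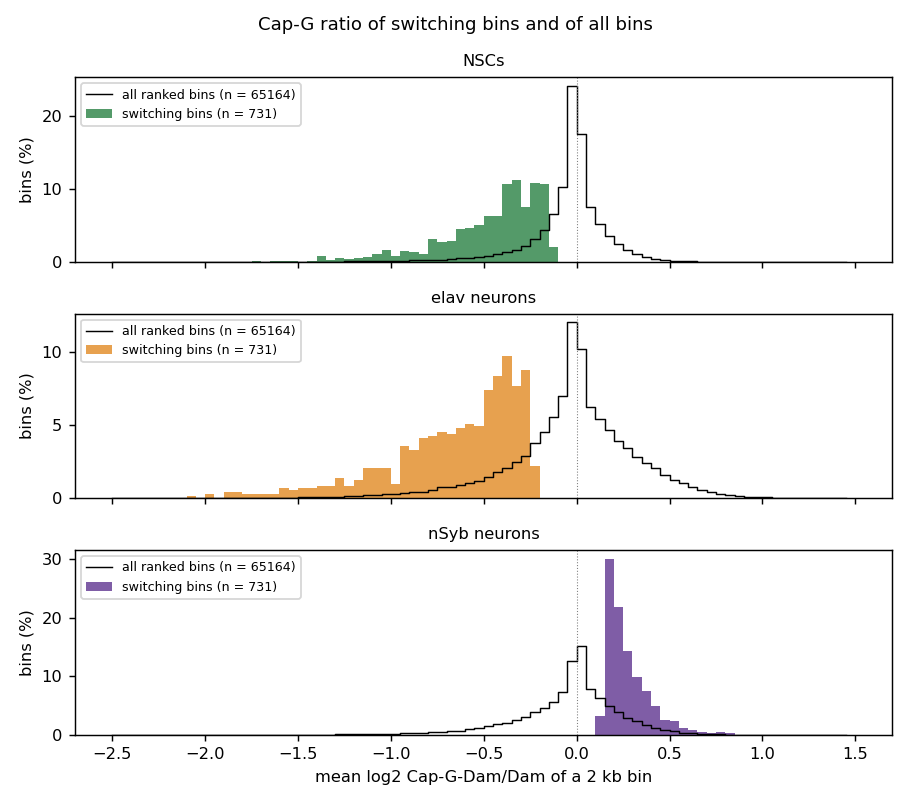
Distribution of the mean log2 Cap-G-Dam/Dam of 2 kb bins (x axis) as percent of bins (y axis) in NSCs, *elav* neurons and *nSyb* neurons, with the 731 switching bins filled and all 65164 ranked bins as a black line. The switching bins reach down to -1.72 in NSCs and -2.08 in *elav* neurons, and their highest value in *nSyb* neurons is 0.81. The sharp edges at -0.14 in NSCs, -0.24 in *elav* and 0.14 in *nSyb* neurons are the thresholds of the selection.

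The thresholds cut through a continuous range of values. The 3 members nearest the limit in NSCs had log2 ratios there of -0.137505, -0.137773 and -0.138159, and the 3 nearest bins that missed it had -0.136886, -0.136351 and -0.13631. At the limit in *elav* neurons the members had -0.240936, -0.242028 and -0.242698, and the bins outside -0.239584, -0.238732 and -0.238725. The limit in *nSyb* neurons separated 0.144866, 0.144998 and 0.145109 from 0.144473, 0.14434 and 0.14426. A bin of the *dmrt99B* locus, on 3R from 29702001 to 29704000, was the closest miss in *nSyb* neurons, with -0.54 in NSCs and -0.66 in *elav* neurons. Of the 731 members, 215 were in the lowest 5% in both NSCs and *elav* neurons, 142 were in the highest 5% in *nSyb* neurons, and 50 met both of these stricter limits.

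Most bins that were low in NSCs and *elav* neurons did not switch. Of 8320 bins low in NSCs and *elav* neurons, 4565 (54.9%) were also in the lowest 20% in *nSyb* neurons, 3024 (36.3%) were in the middle 60%, and the 731 switching bins made up 8.79%. The other 7589 bins low in NSCs and *elav* neurons had a median of -0.30 in *nSyb* neurons, where 13.5% were above 0. Seen from the mature neurons, the switching bins were 5.61% of the 13033 bins high in *nSyb* neurons, while 4733 (36.3%) of these were high in all 3 cell types. The opposite switch, from high in NSCs and *elav* neurons to low in *nSyb* neurons, was met by 219 bins.

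Among themselves, the switching bins varied together in *elav* neurons and NSCs. In log2 units 578 of the 731 bins were lower in *elav* neurons than in NSCs, but the *elav* track also had the wider spread, and by percentile 307 of the 731 were lower. Across the 731 bins, Spearman's rho of *elav* neurons with NSCs was 0.61, against 0.60 across all ranked bins. How low a bin was in NSCs was weakly related to how high it was in *nSyb* neurons, with rho at -0.11 across the switching bins, against 0.43 across all bins. For *nSyb* with *elav* neurons rho was -0.05 in switching bins and 0.52 in all bins. Neighbouring bins share fragments and chromatin, and the selection narrows the range in every track, so these coefficients describe the bins only.

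The fragments of a switching bin are the values that chose it, so their signs are given as a description. Switching bins met a median of 7 fragments (quartiles 5 and 9), and all ranked bins met 6 (quartiles 4 and 9). Of the 5411 fragments that meet switching bins, 86.7% lay under 0 in NSCs and 86.0% in *elav* neurons, and 89.9% were above 0 in *nSyb* neurons. Among all fragments 44.6% lay under 0 in NSCs and 39.9% in *elav* neurons, and 52.0% were above 0 in *nSyb* neurons. Of 609 switching bins with at least 5 fragments, 131 had every fragment under 0 in both NSCs and *elav* neurons and over 0 in *nSyb* neurons.

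A large part of the switching bins lay between genes, and the shares given here carry no test. Of the 731, 60.2% overlapped a protein-coding gene, against 74.6% of all ranked bins. The share was 92.7% for bins that switched from high to low, 83.9% for bins low in all 3 cell types and 91.4% for bins high in all 3. Any annotated gene, non-coding ones included, was met by 67.7% of switching bins and by 77.9% of all bins. Among the non-coding classes, long non-coding RNA genes were met most often, 76 of 1959 (3.88%), followed by antisense RNA genes at 11 of 503 (2.19%). Of 290 tRNA genes 4 were met (1.38%), of 260 miRNA genes 3 (1.15%) and of 269 snoRNA genes 2 (0.743%).

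Of the 291 switching bins that met no protein-coding gene, 168 had one within 5 kb, the median distance was 3897 bp, and 25 were more than 20 kb from any. For 72 of the 291 the nearest gene was in one of the gene lists. Neither this count nor the counts by gene that follow were set against all ranked bins that meet no protein-coding gene. They therefore have no background. *SoxN*, a SoxB transcription factor gene of the early nervous system, was the nearest protein-coding gene of 7 such bins, the largest number for any gene. Its SoxB relative *D* (Dichaete) was nearest to 5, as were *ap*, a LIM-homeodomain gene, and *opa*, a zinc-finger gene. *slp2*, a forkhead gene, and *tup*, a LIM-homeodomain gene of motor neurons, were nearest to 4 each. *pros* was 1 of 10 genes nearest to 3 bins each, with *Indy* and *CG1239* among the others. *CG45544*, which lies next to the Cdc25 phosphatase gene *stg*, was nearest to 5.

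The X chromosome held few switching bins. They made up 67 of its 11433 ranked bins (0.586%), against 1.17% to 1.26% on arms 2L, 2R, 3L and 3R, and 9.17% of all switching bins were on X, against 17.5% of all ranked bins. The X was as often low in NSCs and *elav* neurons (12.5% of its bins) as the large autosomal arms (11.7% to 13.2%). It was high in *nSyb* neurons in 12.5% of its bins, against 21.0% to 22.3% on the same arms. When bins were ranked within each arm, the X held 15.6% of switching bins, so its low share depends on ranking all arms together. The small chromosome 4 was low in NSCs and *elav* neurons in 28.5% of its 656 bins, of which 6.95% switched. Its 13 switching bins include 4 at *Sox102F*, a Sox gene, and 1 at the eye and temporal identity gene *ey*.

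Most switching bins were single, and some formed runs. The 731 bins fell into 594 runs of touching bins, of which 490 were single bins, 82 were pairs, 16 held 3 bins and 6 held 4 to 6. In all, 33.0% of switching bins had a neighbour that switched too, against 9.13% of the 219 bins that switched from high to low, 48.2% of the 4565 bins low in all 3 cell types and 55.8% of the 4733 bins high in all 3, and these classes differ in size. With gaps of up to 10 kb bridged, there were 460 neighbourhoods, of which 333 were single bins and 21 held 5 bins or more, 134 in all.

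The 2 longest runs held 6 bins each, and the one with the larger difference lay in *Delta*, which encodes a transmembrane ligand of Notch that NSC progeny and neurons use to signal to their neighbours. It covered 6 bins on 3R from 19314001 to 19326000, within the 13 bins of the gene (19302731 to 19326217). The mean log2 ratio of the run was -0.74 in NSCs, -1.04 in *elav* and 0.28 in *nSyb* neurons. Of its 37 fragments, 36 lay under 0 in NSCs, 36 in *elav* neurons, and 33 lay over 0 in *nSyb* neurons. The trough was deepest in the bin from 19318001 to 19320000, at -1.43 in NSCs and -1.99 in *elav* neurons, and the highest ratio in *nSyb* neurons (0.51) was in the bin before it. The other 7 bins of *Delta* averaged -0.04 in NSCs, -0.06 in *elav* and 0.07 in *nSyb* neurons. The switching bins of *Delta* thus lay together at the end of the gene with the higher coordinates.

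The receptor and other Notch pathway genes also held switching bins. *N*, which encodes the Notch receptor itself, had 3 among its 20 bins, with means of -0.50 in NSCs, -0.68 in *elav* and 0.34 in *nSyb* neurons. *neur*, which encodes the ubiquitin ligase that makes Delta active by endocytosis, had 3 among 10 bins, at -0.92 in NSCs, -0.97 in *elav* and 0.23 in *nSyb* neurons. The ligand gene *Ser* had 1 among 12. *Delta* was left out of the list of 26 signalling ligand genes, where it stood under another symbol (*Dl*) that found no match. That list had 2 genes met and 0.995% of gene-bin pairs, and with *Delta* added, after its values were seen, it had 3 of 27 and 3.74%. *N* and *neur* are in none of the gene lists used here and were picked after their values were seen.

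The other run of 6 bins and the single run of 5 were both at *ap* (apterous). In the gene, 5 bins on 2R from 5710001 to 5720000 averaged -0.47 in NSCs, -0.72 in *elav* and 0.28 in *nSyb* neurons. Another 6 bins, from 5732001 to 5744000, began 4476 bp past the end of *ap* and averaged -0.57 in NSCs, -0.63 in *elav* and 0.25 in *nSyb* neurons. This second stretch held no annotated gene, and the next protein-coding gene on its far side was 10517 bp away. With bins shifted by 1 kb, 41.7% of its length still switched, against 70.0% of the run in the gene. The bins of *ap* that did not switch were also above 0 in *nSyb* neurons, with a mean of 0.22, and lay at -0.16 in NSCs and -0.26 in *elav* neurons.

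*CycE*, which encodes the cyclin that drives entry into S phase, held the run with the highest ratio in *nSyb* neurons among the 12 longest. Its 4 bins on 2L from 15730001 to 15738000 had 0.44, 0.65, 0.80 and 0.60 in *nSyb* neurons, in order of coordinate. The same bins had -0.47, -0.71, -0.34 and -0.38 in NSCs and -0.61, -0.94, -0.88 and -0.42 in *elav* neurons. A separate bin of the gene, from 15744001 to 15746000, had -0.58 in NSCs, -1.06 in *elav* and 0.22 in *nSyb* neurons. Over the remaining 7 bins of the gene the means were -0.09 in NSCs, -0.13 in *elav* and 0.19 in *nSyb* neurons.

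The other runs among the 12 longest were at transcription factor genes, at long non-coding RNA genes or between genes. *dmrt99B*, a DM-domain factor gene, was met by a run of 4 bins on 3R (29694001 to 29702000) with means of -0.52 in NSCs, -0.71 in *elav* and 0.32 in *nSyb* neurons. A run of 4 bins on 2L (18890001 to 18898000) overlapped *lncRNA:CR44737* and lay 8740 bp from *tup*, with -0.49 in NSCs, -0.84 in *elav* and 0.25 in *nSyb* neurons. *E2f1*, which encodes the activator of S-phase genes, had a run of 3 bins (3R, 21640001 to 21646000) at -1.01 in NSCs, -1.07 in *elav* and 0.35 in *nSyb* neurons. Its middle bin, at -1.72, was the lowest of all 731 in NSCs. *hbn*, a homeobox gene, had 3 bins (2R, 20954001 to 20960000) at -0.91 in NSCs, -1.13 in *elav* and 0.28 in *nSyb* neurons.

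At *ase*, the proneural gene that marks NSCs, 3 touching bins on X from 460001 to 466000 averaged -0.86 in NSCs, -1.02 in *elav* and 0.24 in *nSyb* neurons. Both bins that meet *ase* itself switched, and the one from 460001 to 462000 had -1.53 in NSCs, -1.89 in *elav* and 0.27 in *nSyb* neurons. The long gene *CG32816* spans *ase*, and all 4 of its switching bins lie around *ase*, so the 2 genes cannot be separated here. With bins shifted by 1 kb, 33.3% of the length of the *ase* run still switched. The other 72 bins of *CG32816* averaged 0.02 in NSCs, -0.05 in *elav* and 0.10 in *nSyb* neurons.

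The last 3 of the 12 runs met no protein-coding gene. On 3L from 18848001 to 18854000, 3 bins at *lncRNA:CR45388* averaged -0.97 in NSCs, -1.02 in *elav* and 0.35 in *nSyb* neurons, 1734 bp from the citrate transporter gene *Indy*. On 3R from 5726001 to 5732000, 3 bins lay 1513 bp from *CG1239* and 9196 bp from *cas*, a zinc-finger temporal identity gene on the other side, and had -0.79 in NSCs, -0.73 in *elav* and 0.30 in *nSyb* neurons. On 3L from 14180001 to 14186000, 3 bins had -0.47 in NSCs, -0.57 in *elav* and 0.44 in *nSyb* neurons, between *D* (1381 bp) and the TRP channel gene *nan* (249 bp).

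**Figure D2:**
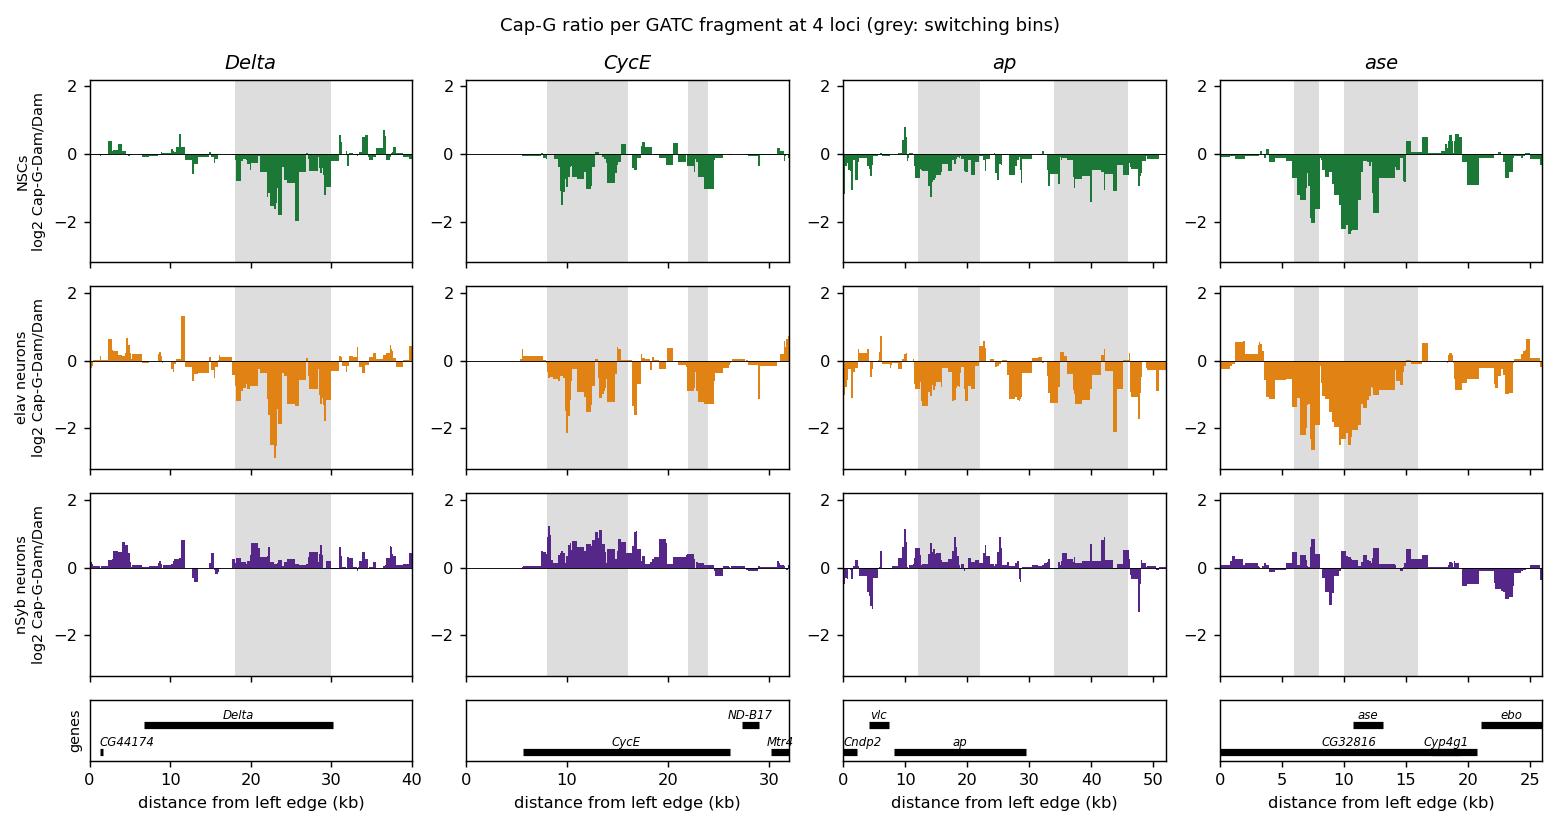
Log2 Cap-G-Dam/Dam of each GATC fragment (y axis) along 4 loci (x axis, kb from the left edge of the window) in NSCs, *elav* neurons and *nSyb* neurons, with protein-coding genes as black bars and switching bins in grey. In the grey bins of *Delta*, *CycE*, *ap* and *ase* the bars mostly point down in NSCs and *elav* neurons, and mostly up in *nSyb* neurons. Outside the grey bins of *Delta* most bars stay close to 0 in all 3 cell types.

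By percentile, the 10 largest switches spanned nearly the whole ranking. The largest was on 2L from 4350001 to 4352000 at *lncRNA:CR44700*, with -1.26 in NSCs, -1.80 in *elav* and 0.55 in *nSyb* neurons. A bin of *Cad74A*, a cadherin gene, on 3L from 17366001 to 17368000 had -1.62 in NSCs, -1.68 in *elav* and 0.54 in *nSyb* neurons, and lay 4190 bp from the bHLH gene *tap*. The bin from 1960001 to 1962000 on 2L, in *erm*, had -0.66 in NSCs, -1.09 in *elav* and 0.81 in *nSyb* neurons, the highest of all 731 there. *erm* (earmuff) is a zinc-finger gene of intermediate neural progenitors, the transit cells of type II NSC lineages. In *pdm2*, a POU-domain gene of the embryonic temporal series, 1 bin (2L, 12682001 to 12684000) had -1.31 in NSCs, -0.88 in *elav* and 0.77 in *nSyb* neurons. Its other 15 bins averaged -0.05 in NSCs, -0.01 in *elav* and 0.08 in *nSyb* neurons, so this bin stood apart from the rest of the gene. Of the other 6 bins, 1 lay in the *CycE* run, 1 in the run at *lncRNA:CR45388* and 1 in *spdi* on X, and 3 met no protein-coding gene.

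In all, 366 of 13911 protein-coding genes (2.63%) met a switching bin, 83 met at least 2 and 32 at least 3. Longer genes meet more bins. The share was 1.18% for genes of 1 to 2 bins, 5.27% for genes of 6 to 10 and 15.2% for genes of more than 20, and the genes that were met had a median length of 11656 bp, against 2161 bp for all protein-coding genes. Lists of genes are therefore given both by how many genes were met and by the share of their gene-bin pairs that switched, which was 0.841% for all protein-coding genes. No test was made of these shares, and the lists were chosen with earlier results of these data known. The paper also shows *dpn*, *CycE* and *stg*, which are in the lists, among its example loci of Cap-G binding. A large share for a list is therefore not independent support. Of the 397 listed genes 81 met a switching bin, and of 13514 genes in no list 285 did (2.11%).

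By gene-bin pairs the Notch target, intermediate progenitor and NSC lists had the 3 largest shares, and by genes met the intermediate progenitor (6 of 10) and temporal identity (13 of 24) lists did. Of 21 NSC and proneural genes, most of them for transcription factors, 8 met a switching bin, with 13.9% of their gene-bin pairs. *tap*, a bHLH gene, switched in both of its bins, with means of -0.84 in NSCs, -1.35 in *elav* and 0.28 in *nSyb* neurons. The bin of *tap* from 17358001 to 17360000 lies mostly outside the gene, which begins at 17359682. *dpn* (deadpan), a bHLH repressor gene that keeps NSCs dividing, switched in 2 of 3 bins. They had -0.17 and -0.60 in NSCs, -0.25 and -1.31 in *elav* neurons and 0.22 and 0.25 in *nSyb* neurons. The second of these, from 8232001 to 8234000, lies mostly past the end of *dpn* at 8232330. The third bin of *dpn* was at -0.07 in NSCs, 0.01 in *elav* and 0.63 in *nSyb* neurons, so it was the highest of the 3 in *nSyb* neurons and was not low earlier.

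Beside *ase*, the other members of that list that were met act in asymmetric division, in the Snail family or in the step to the neuron. *mira*, which encodes a cargo adaptor of asymmetric division, switched in 2 of 3 bins, with means of -0.60 in NSCs, -0.41 in *elav* and 0.41 in *nSyb* neurons. The bin of *mira* from 19930001 to 19932000 lies mostly outside the gene, which begins at 19931799. *pros*, which encodes the homeodomain protein that ends self-renewal in the daughter cell, switched in 6 of 38 bins at -0.40 in NSCs, -0.92 in *elav* and 0.31 in *nSyb* neurons. *sna*, a Snail family zinc-finger gene, had 1 of 2 bins at -0.31 in NSCs, -1.12 in *elav* and 0.24 in *nSyb* neurons. Its relative *esg* had 1 of 3 at -0.99 in NSCs, -0.77 in *elav* and 0.15 in *nSyb* neurons, close to the limit in *nSyb* neurons. *esg* met none when bins were shifted by 1 kb. The bins of *sna* and *esg* lie mostly outside these genes. That of *sna* begins at 15478001 and the gene ends at 15478260, and that of *esg* ends at 15334000 and the gene begins at 15333866. *nerfin-1*, a zinc-finger gene that keeps neurons differentiated, had 1 of 3 bins at -0.73 in NSCs, -1.12 in *elav* and 0.31 in *nSyb* neurons. Its other 2 bins averaged -1.55 in NSCs, -1.73 in *elav* and -0.22 in *nSyb* neurons, so those bins were below 0 in all 3 cell types. Of the 21 genes, 4 (19.0%) met a bin low in all 3 cell types and 2 (9.52%) met a bin high in all 3. Among all protein-coding genes these shares were 25.6% and 26.0%, not matched on gene length.

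Of 18 genes of the Enhancer of split (E(spl)) complex and other Notch targets, 8 met a switching bin, with 28.1% of 32 gene-bin pairs. None met a bin low in all 3 cell types, against 25.6% of all protein-coding genes. *Hey*, a bHLH repressor gene that Notch turns on in newborn neurons, switched in 2 of 3 bins. They had -0.31 and -0.94 in NSCs, -0.77 and -1.47 in *elav* neurons and 0.75 and 0.37 in *nSyb* neurons. The first of these, from 7994001 to 7996000, lies mostly outside *Hey*, which begins at 7995438, and also meets *Dic3*. In the complex on 3R, *E(spl)malpha-BFM*, a Bearded family gene, lay in a single bin at -0.86 in NSCs, -0.91 in *elav* and 0.51 in *nSyb* neurons. The bHLH repressor gene *E(spl)mdelta-HLH* had 1 bin at -0.75 in NSCs, -1.63 in *elav* and 0.19 in *nSyb* neurons, but none when bins were shifted by 1 kb. That bin ends at 25998000 and the gene begins at 25997621, so most of the bin is outside it. Of the same repressor family, *E(spl)mbeta-HLH* had 1 bin at -0.47 in NSCs, -0.93 in *elav* and 0.26 in *nSyb* neurons. A further member, *E(spl)m7-HLH*, had 1 bin at -0.46 in NSCs, -1.10 in *elav* and 0.38 in *nSyb* neurons. *E(spl)mgamma-HLH*, which is active in NSCs, had 1 bin at -0.19 in NSCs, -0.57 in *elav* and 0.39 in *nSyb* neurons. The Bearded family gene *E(spl)m6-BFM* had 1 bin at -0.33 in NSCs, -0.32 in *elav* and 0.18 in *nSyb* neurons. That bin begins at 26034001 and the gene ends at 26034047, so nearly all of the bin is outside it. *Brd*, the founder of that family, lies on 3L and had 1 bin at -0.31 in NSCs, -0.65 in *elav* and 0.18 in *nSyb* neurons. Neither met a switching bin when bins were shifted by 1 kb.

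Among 38 cell-cycle and replication genes, 9 met a switching bin, with 11.7% of gene-bin pairs. Beside *CycE* and *E2f1*, *stg*, which encodes the Cdc25 phosphatase that triggers mitosis, switched in 2 of 3 bins. They had -0.46 and -0.26 in NSCs, -0.65 and -1.16 in *elav* neurons and 0.43 and 0.35 in *nSyb* neurons. The mitotic cyclin genes had 1 bin each, which for *CycA* was at -0.91 in NSCs, -1.23 in *elav* and 0.16 in *nSyb* neurons. For *CycB* it was at -0.39 in NSCs, -0.53 in *elav* and 0.18 in *nSyb* neurons, and for *CycB3* at -0.89 in NSCs, -1.14 in *elav* and 0.30 in *nSyb* neurons. The inhibitor gene *dap*, which stops the cycle by binding Cyclin E, had 1 of 3 bins at -0.92 in NSCs, -0.94 in *elav* and 0.31 in *nSyb* neurons. So a brake of the cycle was met as well as its drivers. *polo*, which encodes a mitotic kinase, had 1 bin at -0.74 in NSCs, -0.39 in *elav* and 0.53 in *nSyb* neurons. *Cdk4*, which encodes the partner kinase of Cyclin D, had 1 bin at -0.36 in NSCs, -0.49 in *elav* and 0.18 in *nSyb* neurons. These 2 kinase genes met no switching bin when bins were shifted by 1 kb. The other 29 genes of this list met none. A bin low in all 3 cell types was met by 16 of the 38 (42.1%), against 25.6% of all protein-coding genes, not matched on gene length. None of 12 condensin and cohesin genes met a switching bin. With 72 gene-bin pairs this list is short, and 0 is near the 0.841% of all protein-coding genes.

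Genes that give NSCs and progenitors their identity over time were met often. Of 24 temporal identity genes 13 met a switching bin (8.40% of gene-bin pairs), and of 10 intermediate progenitor genes 6 did (17.9%). A bin low in all 3 cell types was met by 13 of the 24 (54.2%), against 25.6% of all protein-coding genes. Those 2 shares are not matched on gene length, and temporal identity genes had a median of 15.5 bins, against 2. The temporal identity and intermediate progenitor lists share *erm*, *grh*, *opa*, *ham* and *tll*. *grh*, a grainyhead-family gene, had 5 of 22 bins at -0.40 in NSCs, -0.53 in *elav* and 0.25 in *nSyb* neurons. *erm* had 4 of 11 bins at -0.58 in NSCs, -0.95 in *elav* and 0.38 in *nSyb* neurons, and its other bins averaged -0.44 in NSCs, -0.85 in *elav* and -0.04 in *nSyb* neurons. *cas* switched in 2 of 3 bins at -0.74 in NSCs, -1.08 in *elav* and 0.35 in *nSyb* neurons. *Six4*, a homeobox gene, switched in 2 of 3 at -0.45 in NSCs, -0.55 in *elav* and 0.21 in *nSyb* neurons. *tll*, an orphan nuclear receptor gene, switched in both of its bins at -0.39 in NSCs, -0.64 in *elav* and 0.27 in *nSyb* neurons. The bin of *tll* from 30854001 to 30856000 lies mostly past the end of the gene at 30854400.

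Other homeobox and patterning genes were met in 21 of 69 cases, with 6.84% of gene-bin pairs. *vnd*, an NK-family gene that patterns the neuroectoderm, switched in 5 of 9 bins at -0.35 in NSCs, -0.69 in *elav* and 0.33 in *nSyb* neurons, and its other 4 bins had 0.24 in *nSyb* neurons. The gene *spdi* overlaps *vnd* and switched in 9 of 19 bins, 5 of them the bins of *vnd*. *hbn* switched in 3 of 4 bins, the largest share of any protein-coding gene with at least 3 bins. Of the 12 Hox genes, given as a list of their own, 2 were met, with 1.06% of gene-bin pairs. *Antp* had 1 of 52 bins and *Ubx* 1 of 40. A bin high in all 3 cell types was met by 8 of the 12 Hox genes (66.7%), against 26.0% of all protein-coding genes. These shares are not matched on gene length, and Hox genes had a median of 11.5 bins, against 2.

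The synaptic, ion channel and axon guidance lists held few switching bins for their length. Their shares of gene-bin pairs were near or below the 0.841% of all protein-coding genes. Of 30 synaptic and neurotransmission genes 2 met a switching bin (0.472% of gene-bin pairs), *Snap25* in 1 of 110 bins and the calcium channel gene *cac* in 1 of 28. Of 39 ion channel and neurotransmitter receptor genes, *Grd*, a GABA receptor-like subunit gene, was met in 2 of 9 bins, and no other (0.254% of gene-bin pairs). Axon guidance and adhesion genes are long, and 7 of 34 were met, with 0.780% of gene-bin pairs. The 2 bins of *fra*, a Netrin receptor gene, were at -0.31 in NSCs, -0.41 in *elav* and 0.15 in *nSyb* neurons. By genes met, the synaptic and guidance lists were above the 2.63% of all protein-coding genes, a share that is not matched on gene length. Of the 9 pan-neuronal and neuronal fate genes 2 were met, *pros* and *nerfin-1*. The share of gene-bin pairs in that list was 5.04%, above the 0.841% of all protein-coding genes.

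Genes of other cell types in the brain or body were mixed. Of 18 glial genes 3 were met (3.48% of gene-bin pairs). *gcm*, the switch gene of glial fate, switched in both of its bins, with means of -0.47 in NSCs, -0.44 in *elav* and 0.49 in *nSyb* neurons. The bin from 9578001 to 9580000, at 0.65 in *nSyb* neurons, lies mostly outside *gcm*, which begins at 9579498, and also meets *CG31709*. *Eaat1*, a glutamate transporter gene of glia, had 1 of 5 bins at -0.78 in NSCs, -0.65 in *elav* and 0.51 in *nSyb* neurons. *Nrx-IV*, a septate junction gene, had 1 of 6 at -0.91 in NSCs, -1.40 in *elav* and 0.37 in *nSyb* neurons. Of 23 muscle genes 3 were met (1.23%), while 17 (73.9%) met a bin high in all 3 cell types, against 26.0% of all protein-coding genes. The latter shares are not matched on gene length, and muscle genes had a median of 7 bins, against 2. Of 14 fat body and larval serum genes none was met, in 49 gene-bin pairs, too few to set against the 0.841% of all protein-coding genes. Asymmetric division genes were met in 4 of 20 cases (4.12%), *mira* and *pros* among them, and *jar*, a myosin VI gene, had 1 of 10 bins at -0.56 in NSCs, -0.89 in *elav* and 0.49 in *nSyb* neurons.

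**Figure D3:**
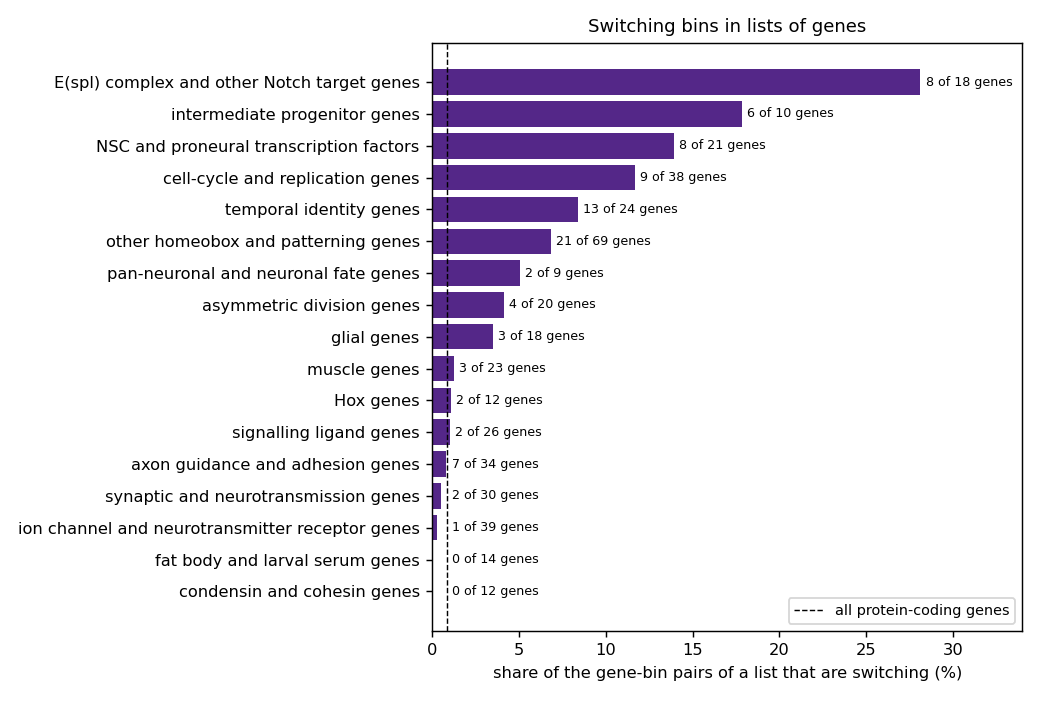
Share of the gene-bin pairs of each gene list that are switching bins (x axis, percent), with the number of genes met beside each bar and the 0.841% of all protein-coding genes as a dashed line. The share is 28.1% for the E(spl) and Notch target list, 13.9% for the NSC list and 11.7% for the cell-cycle list, and it is 0.472% for the synaptic list and 0.254% for the ion channel list. Lists can share genes and were chosen with earlier results of these data known, and the bars carry no test.

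When bins up to 10 kb apart were joined, the largest neighbourhoods were those described here, named by size after their values were seen. The largest held 11 switching bins of 27 on 3R from 4818001 to 4872000, at *opa* and 3 neighbours, with means of -0.41 in NSCs, -0.56 in *elav* and 0.28 in *nSyb* neurons. Next were 10 bins on 2R (20908001 to 20960000) from the homeobox gene *Rx* to *hbn*, at -0.56 in NSCs, -0.80 in *elav* and 0.36 in *nSyb* neurons. *Act57B*, a muscle actin gene, lies between them, and its switching bin belongs to this stretch. At *vnd* and *spdi* on X (586001 to 618000) there were 9 bins of 16. The *stg* neighbourhood held 8 of 11 bins on 3R from 29252001 to 29274000, at -0.51 in NSCs, -0.95 in *elav* and 0.29 in *nSyb* neurons, and most of it lay outside *stg*. There were 8 bins at *D* (3L, 14152001 to 14186000), 7 at *gcm*, 7 at *slp1* and *slp2*, 6 at *dpn* and *pnut*, 6 at *cas*, and 6 each in the *Delta* run and in the run beyond *ap*.

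Of the 32 protein-coding genes with at least 3 switching bins, 14 are in a list and 18 are not, *Delta* among them because its listed symbol did not match. *Myo81F* had the most, 10, but it spans 916 bins near the centromere of 3R, where its switching bins were scattered. They were shallow on the low side, with means of -0.25 in NSCs and -0.40 in *elav* neurons. In *nSyb* neurons their mean was 0.27, against a median of 0.24 for all switching bins. *Sox102F* on chromosome 4 had 4 of 18 bins at -0.43 in NSCs, -0.34 in *elav* and 0.37 in *nSyb* neurons. *Tet*, which encodes a TET-family dioxygenase, had 4 of 47 at -0.56 in NSCs, -0.81 in *elav* and 0.20 in *nSyb* neurons. *Jupiter*, a microtubule-associated protein gene, had 3 of 15 at -0.52 in NSCs, -0.70 in *elav* and 0.29 in *nSyb* neurons. *Lac*, a septate junction gene, had 3 of 7 at -0.42 in NSCs, -0.63 in *elav* and 0.26 in *nSyb* neurons. These genes were chosen by their counts after the values were known. *msi*, an RNA-binding protein gene of neural precursors, had 2 touching bins on 3R from 25594001 to 25598000, of which the second was at -1.21 in NSCs, -1.21 in *elav* and 0.45 in *nSyb* neurons. *egr*, a TNF ligand gene, had 2 of 4 bins at -0.41 in NSCs, -0.46 in *elav* and 0.31 in *nSyb* neurons.

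Outside the runs the medians moved towards 0 with distance. A bin beside a run is one that failed the rule, so a drop at the edge is built in. In the bins next to a run, outside the selection, the median log2 ratio was -0.10 in NSCs, -0.21 in *elav* and 0.09 in *nSyb* neurons. At 10 kb the medians were -0.04 in NSCs, -0.06 in *elav* and 0.03 in *nSyb* neurons, and at 30 kb they were -0.02 in NSCs, -0.01 in *elav* and 0.01 in *nSyb* neurons. In the adjacent bins 42.2% were in the lowest 20% in NSCs, 46.7% in the lowest 20% in *elav* neurons and 32.6% in the highest 20% in *nSyb* neurons. At 10 kb these shares were 29.4% in NSCs, 29.4% in *elav* and 25.8% in *nSyb* neurons, still above 20%. At 30 kb they were 21.8% in NSCs, 22.1% in *elav* and 24.8% in *nSyb* neurons. Adjacent bins can share a GATC fragment with a switching bin, so some likeness at the first step is built in.

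**Figure D4:**
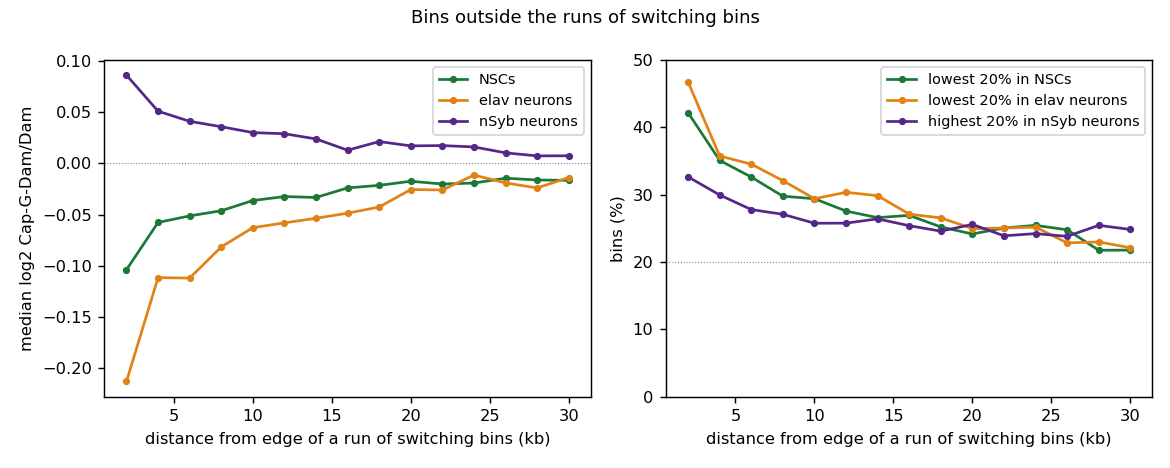
Median log2 Cap-G-Dam/Dam (left) and percent of bins in the lowest or highest 20% (right) against the distance from the edge of a run of switching bins in kb, for bins that did not switch. The medians go towards 0 within about 10 kb in the 3 cell types. The dotted line on the right marks the 20% that all bins have by construction.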

How the data were processed

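Targeted DamID was measured in 12 samples of larval brains. The authors mapped reads to release 6.03 of the genome (BDGP6 in the submitters' processing notes, which name Bowtie2), counted them per GATC fragment and set Cap-G-Dam against Dam-only. The deposited values are log2 ratios, averaged by the authors over replicates into 1 track per driver. The sources used here give neither the way of averaging, nor the tool versions, nor the depth. Since each cell type has 1 averaged track, no SD, interval or p-value between samples could be computed, so precision is unknown. The 12 RNA-seq samples were not analysed here.

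Each of the 65164 ranked bins holds the mean of its fragments, weighted by the length inside the bin. Another 1774 bins, with every fragment at 0 in all 3 tracks, were dropped. Fragments at 0 in all 3 tracks were 6.60% of all and 0.148% of those that meet switching bins. Gene spans came from the RefSeq table of Release 6 plus ISO1, with 13911 protein-coding genes on the 6 arms. It gives neither strand nor exons, so exon, intron and UTR positions are not reported. No genome or promoter sequence was used here, so no motif was searched. A gene met a bin if they shared at least 1 bp, so a bin counted for a gene can lie mostly outside it. Genes that share a bin cannot be told apart.

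Named genes were those of the 12 longest runs, those of the 10 bins with the largest percentile gap, the NSC, Notch target and cell-cycle genes that met a switching bin, the 2 genes with most switching bins from every other list, the 10 protein-coding genes with the largest share of switching bins among those with at least 3 bins, and the bins at the thresholds. Genes outside this rule, among them *SoxN*, *D*, *slp2*, *tup*, *CG45544*, *CG1239*, *ey*, *tll*, *jar*, *msi*, *N*, *neur*, the genes of the neighbourhoods and the unlisted genes with at least 3 switching bins, were chosen after their values were seen. The members and the 17 gene lists were chosen with earlier results of these data known, and 3 listed symbols (*SA*, *Dl* and *fas*) found no match. *Dl* is another symbol of *Delta*, which was thus counted as in no list. Scripts were tested on simulated tracks. The software was pandas 2.3.3, numpy 2.4.6, matplotlib 3.10.9 and scipy 1.17.1 under Python 3.11.15. Bin size, bin origin, bin average, thresholds, ranking within arms, fragments at 0, fragments per bin and gene margins were varied.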

Additional observations from a re-analysis of the deposited data

How the results depend on the processing

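The main settings gave 731 switching bins, 594 runs and 366 protein-coding genes. With bins of 1 kb there were 1543 bins in 1140 runs, 55.0% of them in protein-coding genes, with a median of 4 fragments. With bins of 5 kb there were 282 bins in 222 runs at 220 genes, 66.3% in genes and 6.74% on X, with a median of 17 fragments. Limits of 10% gave 168 bins in 150 runs at 88 genes, 53.0% in genes, and met 5 NSC and proneural genes in place of 8. Limits of 25% gave 1221 bins in 940 runs at 552 genes. With at least 5 fragments per bin there were 421 bins in 357 runs at 237 genes. The unweighted median of fragments put 56.0% of bins in genes, and ranks within arms put 15.6% of bins on X. The other 56 values moved by less than 1.5 times or stayed within the 95% binomial interval of a share, which covers counting error only.

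Single bins depended on where bins begin. With bins shifted by 1 kb the count was again 731, but 44.0% of the length and 56.8% of the genes were shared with the main set. All of the 12 longest runs met switching bins under each of the 11 alternatives, and 10 of them kept at least 50% of their length with shifted bins. The exceptions with shifted bins were the run beyond *ap* (41.7%) and that at *ase* (33.3%). With limits of 10%, 5 of the 12 runs kept at least 50% of their length, and the median kept was 36.7%. With at least 5 fragments per bin 8 of the 12 did, and with bins of 1 kb 11 did. Among the NSC, Notch target and cell-cycle genes, the lists for which this was counted, *esg*, *Cdk4*, *polo*, *Brd*, *E(spl)m6-BFM* and *E(spl)mdelta-HLH* met no switching bin when bins were shifted. Leaving out bins with 50% or more of their length at 0, an alternative chosen after seeing the data, kept 695 bins, all of them in the main set. None of the 731 switching bins had that much of its length at 0. This alternative therefore acted only by moving the limits, and its overlap with the main set is little check. The planned promoter motif search was not run, as no promoter sequence was used here. No paired analysis was possible because the tracks are averages over replicates.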
